A study of Mus musculus with 6 samples.

Results

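Hsd3b5, Srd5a1, Akr1c6, Hsd17b2 and Hsd11b1 encode liver enzymes that add hydrogen to, or remove it from, steroid hormones. They are described here in livers of C57BL/6 mice aged 14 months, 3 of them wild type (replicates 1, 2 and 4) and 3 (replicates 1, 3 and 4) carrying a transgene for human c-Src, a tyrosine kinase, under the mouse metallothionein promoter. The study looked for genes downstream of it in a line in which some mice develop liver tumours. The genes were chosen by name for what their products do, with earlier results of these data known. A probe was assigned to a gene where its accession, without version, was a RefSeq transcript of that gene. Each gene had 1 probe, so the 5 genes were 5 of 13968 named genes and 5 of 34967 mouse probes. A metallothionein promoter is active in many cell types and responds to zinc, and the study's text says that the transgene could be induced with zinc but that this was mostly not needed. The labels give neither the sex of a mouse nor whether a sampled liver held tumour, and 2 further arrays, wild-type 3 and transgenic 2, were left out by the study for weak signal.

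The liver both activates and clears steroid hormones. Dehydrogenases and reductases set the oxidation state of a hydroxyl or keto group, or of a double bond, at fixed positions of the steroid, and so decide whether the molecule binds its receptor. In rodent liver many such enzymes differ between the sexes under the control of growth hormone secretion, and Hsd3b5 is known as a gene of adult male mouse liver.

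The signal of a spot is the deposited intensity after background was taken out, and the normalized log2 value is its log2 after quantile normalization between arrays. Differences are transgenic minus wild type on that scale, with the moderated standard error (SE) of limma. The median signal was 53.8 to 93.4 on wild-type and 94.8 to 117 on transgenic arrays, so raw signals favour the transgenic group. Of the probes, 62.6% to 69.0% on wild-type and 68.8% to 71.7% on transgenic arrays were above background. The background threshold, 33.0 to 50.6, was set from bacterial control spots. Calls near it thus tend to favour the transgenic group. Src itself, the check of the labels, read 6.62 to 7.21 in wild-type and 7.71 to 9.67 in transgenic livers. The accession of its probe is of mouse Src, and how it reads the human transcript was not tested. The metallothionein genes Mt1 and Mt2 were also higher in transgenic livers. With 1 array left out, their differences were 3.41 to 4.30 and 4.53 to 5.21, and the cause was not tested. Of 34175 features tested, 0 (0%) passed limma's test at an adjusted p under 0.05, and 2424 (7.09%) had an unadjusted p under 0.05, 1493 (4.37%) higher and 931 (2.72%) lower. The 3 transgenic values all lay below the 3 wild-type values for 5.9% of features and all above them for 10.1%. With 3 arrays against 3, an exact permutation test cannot give a two-sided p under 0.1. The p-values measure the spread between these 6 samples, which the labels number as separate mice or controls.

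**Figure D1:**
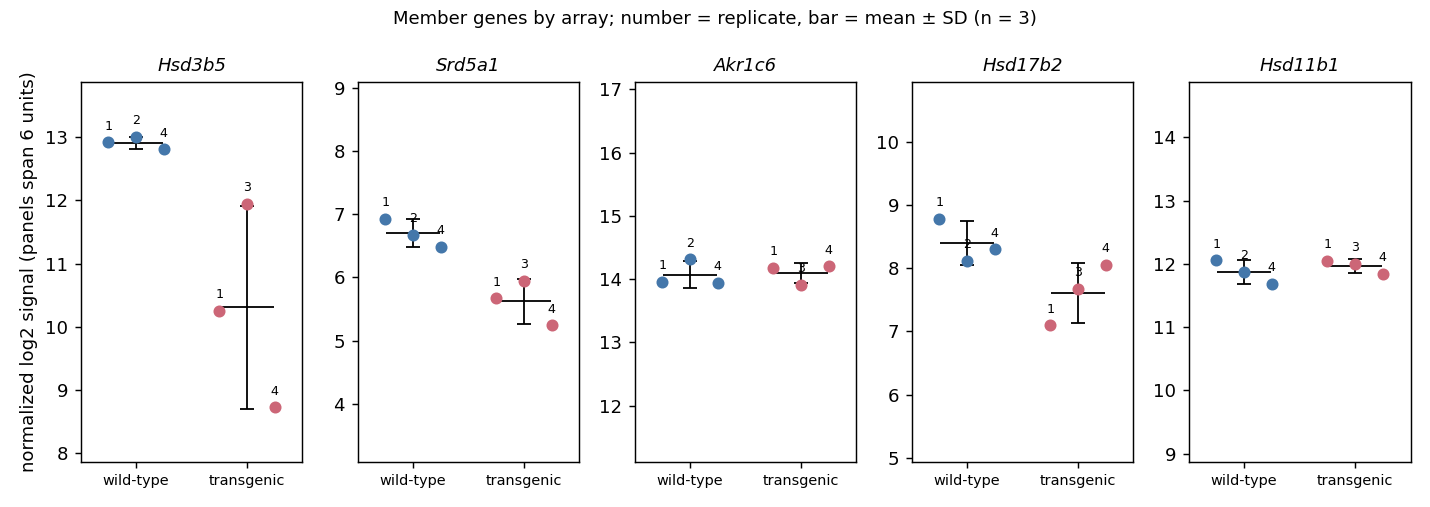
Normalized log2 signal of the 5 genes on each array (points numbered by replicate) for wild-type and transgenic livers, with the group mean and SD (n = 3), each panel spanning 6 log2 units. Hsd3b5 runs from 12.81 to 13.01 in wild-type and from 8.73 to 11.95 in transgenic livers, whereas the groups overlap for Akr1c6 and Hsd11b1.

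Of the 5 genes, 0 passed limma's adjusted test, against the 0% over all features. The transgenic values were all lower for Hsd3b5, Srd5a1 and Hsd17b2, so 3 of the 5 had groups that did not overlap in that direction, beside 5.9% of all features. These 3 had an unadjusted limma p under 0.05, beside 2.72% of all features in that direction. For Hsd17b2 this limma p was 0.048, and it rose over 0.05 in several alternatives. It was 0.135 without wild-type replicate 1 and 0.141 without transgenic replicate 1. The genes were chosen with earlier results of these data known, so these shares describe them and are no test.

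The proximal promoters are shown for 4 genes, to set the gene with the widest spread, Hsd3b5, beside its neighbour Hsd3b3 in the same gene cluster and beside a gene that was also lower, Srd5a1, and a gene whose groups overlapped, Akr1c6. The windows are RefSeq sequences of GRCm38.p6 from 250 bases before to 50 bases after a start site, written 5′ to 3′ on the gene's strand, and capitals mark matches to the motifs named after them. Entries were found for 4 of the 5 genes, Hsd17b2 being the exception.
Hsd3b5, chr3:98645485-98645784, minus strand: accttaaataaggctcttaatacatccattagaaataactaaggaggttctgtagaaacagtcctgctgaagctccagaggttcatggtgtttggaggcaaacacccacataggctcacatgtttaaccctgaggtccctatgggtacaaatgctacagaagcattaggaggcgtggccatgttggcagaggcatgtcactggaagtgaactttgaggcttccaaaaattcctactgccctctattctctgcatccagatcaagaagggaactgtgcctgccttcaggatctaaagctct
Hsd3b3, chr3:98763079-98763378, minus strand: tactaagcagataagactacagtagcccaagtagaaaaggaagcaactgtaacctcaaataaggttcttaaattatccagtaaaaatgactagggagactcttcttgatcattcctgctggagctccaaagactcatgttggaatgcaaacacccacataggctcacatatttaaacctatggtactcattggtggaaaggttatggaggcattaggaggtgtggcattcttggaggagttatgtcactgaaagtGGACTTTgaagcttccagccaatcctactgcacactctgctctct
Srd5a1, chr13:69611414-69611713, minus strand: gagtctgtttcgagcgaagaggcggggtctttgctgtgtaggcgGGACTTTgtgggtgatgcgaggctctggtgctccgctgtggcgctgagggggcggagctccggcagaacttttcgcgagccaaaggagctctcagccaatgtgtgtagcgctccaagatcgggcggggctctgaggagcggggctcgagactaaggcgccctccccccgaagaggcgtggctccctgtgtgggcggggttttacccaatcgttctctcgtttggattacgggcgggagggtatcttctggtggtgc
Akr1c6, chr13:4434093-4434392, plus strand: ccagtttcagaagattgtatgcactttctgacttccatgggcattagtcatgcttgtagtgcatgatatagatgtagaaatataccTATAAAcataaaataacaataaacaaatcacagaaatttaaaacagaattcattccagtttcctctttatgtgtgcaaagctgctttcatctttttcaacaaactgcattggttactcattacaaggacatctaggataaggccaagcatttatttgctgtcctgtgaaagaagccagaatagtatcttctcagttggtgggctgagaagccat
Both strands were searched for TTCNNNGAA, the STAT5 motif. They were also searched for AGAACA, the repeated unit of glucocorticoid and androgen receptor sites. Further motifs were GTTAAT, the repeated unit of HNF1 sites, and the HNF4A core, AAAGTCC. The last motif was TATAAA, the box bound by TBP. No matches overlapped in the windows shown. Over all 32851 windows of the table the shares with a match were 8.30%, 19.0%, 7.10%, 4.21% and 13.6%, in that order. The Hsd3b5 and Hsd11b1 windows held 0 matches, which says only that these letters are not in them. Srd5a1 held 1, the HNF4A core on the opposite strand at position -206 from the start site. Akr1c6 held 1, the letters TATAAA at -164, and whether TBP binds there was not tested. The Hsd3b3 window held the HNF4A core on the opposite strand at position 6. The windows differed in composition, with 63% G and C and 24 CpG dinucleotides in Srd5a1, 46% and 1 in Hsd3b5, 54.7% and 6 in Hsd11b1, and 36% and 0 in Akr1c6, where the median over all windows was 52.7% and 7. In a global alignment the Hsd3b5 window was identical to that of Hsd3b3 at 63.3% of 300 bases, and to those of Srd5a1, Akr1c6 and Hsd11b1 at 50%, 52% and 56%.

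Hsd3b5 belongs to the 3-beta-hydroxysteroid dehydrogenase family, and its liver product is known as a reductase that uses NADPH to inactivate steroids rather than to make them. Its probe gave signals of 7054, 7127 and 7300.1 on wild-type arrays 1, 2 and 4, and 1291, 4082 and 543 on transgenic arrays 1, 3 and 4. The wild-type livers were close together, and every transgenic liver was below them, replicate 4 furthest and replicate 3 least. On the normalized scale the wild-type values were 12.92, 13.01 and 12.81, a mean of 12.91 ± 0.10 (SD, n = 3). The transgenic values were 10.26, 11.95 and 8.73, a mean of 10.31 ± 1.61 (SD, n = 3). Relative to the wild-type mean, transgenic replicates 1, 3 and 4 were 6.30-fold, 1.95-fold and 18.2-fold lower. The spread among transgenic livers was thus wide where that among wild-type livers was narrow.

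The difference for Hsd3b5 was -2.60 ± 0.77 (SE), a 6.07-fold lower level, with a 95% interval of -4.46 to -0.74. It did not pass over all features (limma, adjusted p = 0.69), and the exact two-sided permutation p was 0.1, the smallest possible. The groups stayed apart on the raw signal and on the signal divided by the array median as well. The difference was -1.81 without transgenic replicate 4 and -3.42 without transgenic replicate 3. In bulk liver, fewer cells that express a gene and less RNA per cell cannot be told apart.

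Transgenic replicate 4 differed from the other arrays in genes of the Y chromosome and in genes with sex-biased liver expression. Of its Y-linked genes, Ddx3y read 2.74, Eif2s3y 4.94 and Uty 5.18, none of them above background there and all of them above it on the other 5 arrays. The remaining Y-linked gene of that list, Kdm5d, read 9.03 on it. The mean deviation of the 4 Y-linked genes from the wild-type mean was 0.40, 0.20 and -2.22 on transgenic replicates 1, 3 and 4. The 14 measured male-biased genes other than those described here deviated by -0.56, -0.38 and -1.55 on these arrays, and the 17 measured female-biased genes by 1.21, 0.80 and 4.04. Hsd3b5 had the same order of arrays as the male-biased list, with deviations of -2.66, -0.97 and -4.18. Without transgenic replicate 4 the difference of Hsd3b5 was -1.81, and the part of sex in it was not tested.

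The other genes of the 3-beta family lie mostly beside Hsd3b5 on chromosome 3. In gene order the listed genes of the cluster run from Hsd3b4 through Hsd3b5, Hsd3b2, Hsd3b3 and Hsd3b6 to Hsd3b1. Gm10681, between Hsd3b4 and Hsd3b5, and Gm4450, just before Hsd3b4, had no named probe. All 8 listed family members were measured. All 8 differences were negative, with a median of -0.48, beside 7306 of 13968 named genes and a median of -0.02. The 8 were also negative under median and 75th percentile scaling, and 7 of 8 after local correction for patches on the arrays. With 1 array left out, the negative count was 8 without transgenic replicate 4, with a median of -0.38. It was 7 without any 1 wild-type array, and 6 without transgenic replicate 1, with a median of -0.30, or without transgenic replicate 3, with a median of -0.51. With the replicate block it was 6. Hsd3b1, Hsd3b4 and Hsd3b6, known from gonads, adrenal and kidney, were above background on 0 arrays, so their differences carry no level. These genes are close paralogs, and how far a probe separates them was not tested.

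Hsd3b3, a family member known in liver and kidney, read 12.26, 12.47 and 12.17 in wild-type and 11.87, 11.73 and 11.60 in transgenic livers. The groups did not overlap, and all 3 transgenic arrays were close together. The difference was -0.57 ± 0.19 (SE), which did not pass (limma, adjusted p = 0.69). Hsd3b2 had -0.51 ± 0.29 (SE), with overlapping groups, and -0.29 without transgenic replicate 4 or -0.34 without wild-type replicate 2. Hsd3b7, an enzyme of bile acid synthesis, had -0.35 ± 0.24 (SE) and Nsdhl, an enzyme of cholesterol synthesis, -0.17 ± 0.23 (SE), both with overlapping groups. Without transgenic replicate 4 Hsd3b7 had -0.15, and Nsdhl ranged from -0.33 without wild-type replicate 4 to -0.003 without wild-type replicate 1.

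Directly after Hsd3b1 in gene order lies Hao2, which encodes a peroxisomal hydroxyacid oxidase and is on the female-biased list. It read 5.41, 5.0 and 5.37 in wild-type and 7.35, 7.03 and 9.24 in transgenic livers. The groups did not overlap and ran opposite to Hsd3b5, with transgenic replicate 4 again furthest from the wild-type arrays. The difference was 2.61 ± 0.59 (SE) and did not pass (limma, adjusted p = 0.69).

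**Figure D2:**
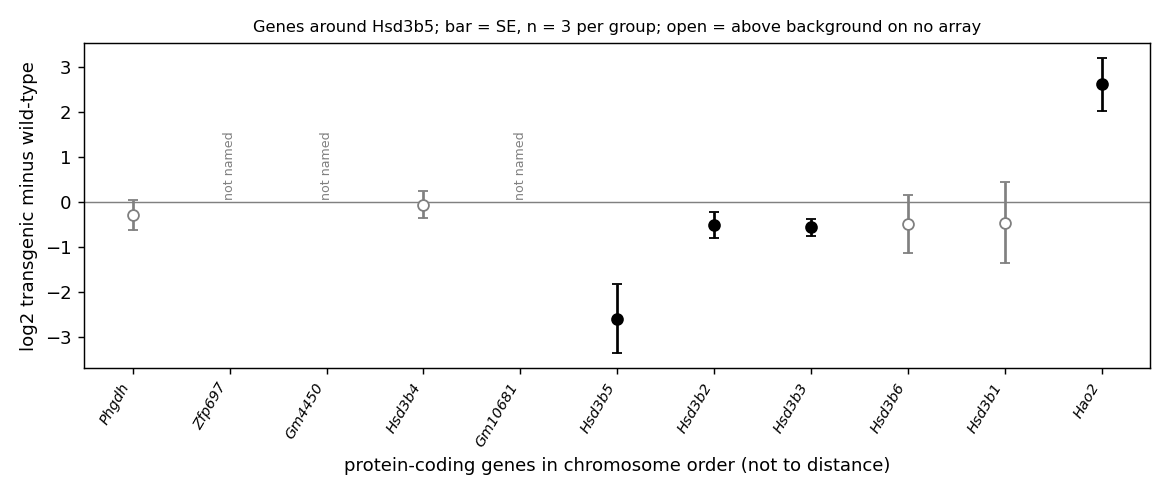
Log2 difference, transgenic minus wild type, for the measured genes around Hsd3b5 in their order on the chromosome (bars are limma's SE, n = 3 per group, and open points mark genes above background on no array). Hsd3b5 at -2.60 and Hao2 at 2.61 lie at opposite ends, and the other 3-beta genes lie between -0.57 and -0.06.

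Srd5a1 encodes steroid 5-alpha-reductase 1, which reduces testosterone to dihydrotestosterone and takes the first step in clearing glucocorticoids and progesterone. Its probe gave weak signals, 73.1, 89.3 and 94.7 on wild-type and 55.0, 77.2 and 47.6 on transgenic arrays 1, 3 and 4. The raw signals of the groups overlapped at transgenic replicate 3 and wild-type replicate 1. Divided by the array median, the wild-type values were 1.01 to 1.36 and the transgenic values 0.41 to 0.69, with no overlap. The normalized values were 6.92, 6.68 and 6.49 against 5.67, 5.95 and 5.24, again without overlap and with replicate 4 lowest.

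The group means of Srd5a1 were 6.70 ± 0.22 (SD, n = 3) and 5.62 ± 0.36 (SD, n = 3), a difference of -1.08 ± 0.26 (SE) or a 2.11-fold lower level, with a 95% interval of -1.70 to -0.45. It did not pass (limma, adjusted p = 0.69), and the exact two-sided permutation p was 0.1. The probe passed the background threshold in all 3 wild-type livers and in 2 transgenic livers, but not in transgenic replicate 4, so the value there is near the limit of measurement. Adding 50 to each intensity before log2 gave -0.63, and leaving out transgenic replicate 4 gave -0.89.

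The other reductases are given beside Srd5a1. Of the 18 genes listed as steroid reductases and aldo-keto reductases, 13 were measured, and Srd5a1 was the 1 whose groups did not overlap, beside 16% of all features in either direction. Srd5a3, which acts in making dolichol, had -0.28 ± 0.23 (SE), and -0.13 without wild-type replicate 1. Srd5a2, the reductase of male accessory glands, had 0.88 ± 0.94 (SE), and 4 of its 6 spots lay in patches of shifted signal. That value was 0.05 without transgenic replicate 3, 0.12 without wild-type replicate 2, 1.37 without transgenic replicate 1 and 1.42 without wild-type replicate 4. Akr1d1, the 5-beta-reductase of bile acid synthesis, had 0.08 ± 0.23 (SE), which turned to -0.05 without transgenic replicate 1.

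Akr1c6 encodes an aldo-keto reductase that forms testosterone from androstenedione. Its signals were 15259, 18496 and 15512 on wild-type and 18764, 15637 and 21824 on transgenic arrays 1, 3 and 4. The probe was among the brightest, above 99.8% to 99.9% of probes on every array, and at most 57.8% of the brightest signal. The normalized values were 13.96, 14.31 and 13.95 against 14.18, 13.91 and 14.20. The groups overlapped, with the highest and the lowest value in wild-type replicate 2 and transgenic replicate 3.

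The difference of Akr1c6 was 0.03 ± 0.21 (SE), with a 95% interval of -0.48 to 0.53, and turned to -0.37 under median scaling and -0.36 under 75th percentile scaling. It did not pass (limma, adjusted p = 0.98), and the exact two-sided permutation p was 1. Other Akr1c genes of the cluster on chromosome 13 are given for comparison. Akr1c14, a 3-alpha-hydroxysteroid dehydrogenase, had 0.19 ± 0.21 (SE) and Akr1c13 had 0.09 ± 0.20 (SE), both with overlapping groups, and both moved by over 1.5 times with 1 array left out. Akr1e1, a further aldo-keto reductase gene nearby, had 0.48 ± 0.65 (SE), also with overlapping groups. Akr1c18 and Akr1c21, which act on progesterone and on androgens, were above background on 0 arrays. The Akr1c genes are similar in sequence, and how far the probes separate them was not tested.

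Hsd17b2 encodes the 17-beta dehydrogenase that oxidizes testosterone and oestradiol to their less active keto forms. Its signals were 295, 237 and 333 on wild-type and 148, 256 and 348 on transgenic arrays 1, 3 and 4, and these raw signals overlapped. Divided by the array median they were 5.48, 3.08 and 3.56 against 1.56, 2.30 and 2.97, with no overlap. The normalized values were 8.78, 8.12 and 8.30 against 7.10, 7.68 and 8.05, and the highest transgenic value was just below the lowest wild-type value.

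The group means of Hsd17b2 were 8.40 ± 0.34 (SD, n = 3) and 7.61 ± 0.48 (SD, n = 3). The difference was -0.79 ± 0.32 (SE), a 1.73-fold lower level, with a 95% interval of -1.57 to -0.01. It did not pass (limma, adjusted p = 0.69), and the exact two-sided permutation p was 0.1. Unlike for Hsd3b5 and Srd5a1, transgenic replicate 1 was the lowest array and replicate 4 the highest, with deviations from the wild-type mean of -1.30, -0.72 and -0.35 on replicates 1, 3 and 4. The difference was -1.01 without replicate 4 and -0.54 without replicate 1.

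The 17-beta family did not share a direction. Of 13 listed genes 11 were measured, 6 with a positive and 5 with a negative difference and a median of 0.02, which became 2 and 9 with a median of -0.24 under median scaling. Of the 11, 2 had groups that did not overlap, both lower, beside 5.9% of all features. Besides Hsd17b2 this was Hsd17b14, at -0.16 ± 0.19 (SE), which turned to 0.90 after local correction, 1 of its spots lying in a patch, and was -0.07 without transgenic replicate 4. Hsd17b4, the peroxisomal enzyme of fatty acid oxidation, had 0.05 ± 0.24 (SE), and Hsd17b10, a mitochondrial enzyme, 0.09 ± 0.23 (SE), and both turned negative with 1 transgenic array left out (-0.13 and -0.06). Hsd17b13, a protein of lipid droplets, ran from 5.32 to 9.69 over the arrays, and 1 of its spots lay in a patch. Hsd17b3, the testis enzyme that makes testosterone, was above background on 1 array of each group.

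Hsd11b1 encodes the enzyme of the endoplasmic reticulum that regenerates active corticosterone from its inert keto form. Its signals were 3635, 3206 and 3458 on wild-type and 4493, 4190.1 and 4442 on transgenic arrays 1, 3 and 4. These raw signals were all higher in transgenic livers, but the median signals of those arrays were higher too. Divided by the array median the groups overlapped at 37.0 to 67.6 and 37.7 to 47.4. The normalized values were 12.06, 11.87 and 11.68 against 12.05, 12.00 and 11.84, with overlapping groups.

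The difference of Hsd11b1 was 0.10 ± 0.20 (SE), with a 95% interval of -0.38 to 0.57, and turned to -0.21 under median scaling and -0.19 under 75th percentile scaling. It did not pass (limma, adjusted p = 0.90), and the exact two-sided permutation p was 0.7. H6pd, which supplies the NADPH that Hsd11b1 uses, read 14.15 on wild-type replicate 4 and 11.24 to 11.39 on the other 5 arrays. Its difference of -0.90 ± 0.79 (SE) became 0.06 without that array, and 1 of its spots lay in a patch. Slc37a4, the glucose 6-phosphate transporter that feeds H6pd, had 0.13 ± 0.24 (SE), and Hsd11b2, the enzyme that inactivates corticosterone in kidney, 0.29 ± 0.38 (SE). Slc37a4 turned to -0.07 without transgenic replicate 3 and Hsd11b2 to -0.08 without wild-type replicate 1.

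Between arrays, the 3 lower genes varied together to different degrees. Over the 6 arrays Pearson's r was 0.95 for Hsd3b5 with Srd5a1, 0.66 for Srd5a1 with Hsd17b2 and 0.50 for Hsd3b5 with Hsd17b2. Without transgenic replicate 4 the same pairs had 0.91, 0.96 and 0.90 over 5 arrays. All other pairs lay between -0.37 and -0.02 over the 6 arrays. These values describe 6 arrays that share their group means and the normalization.

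**Figure D3:**
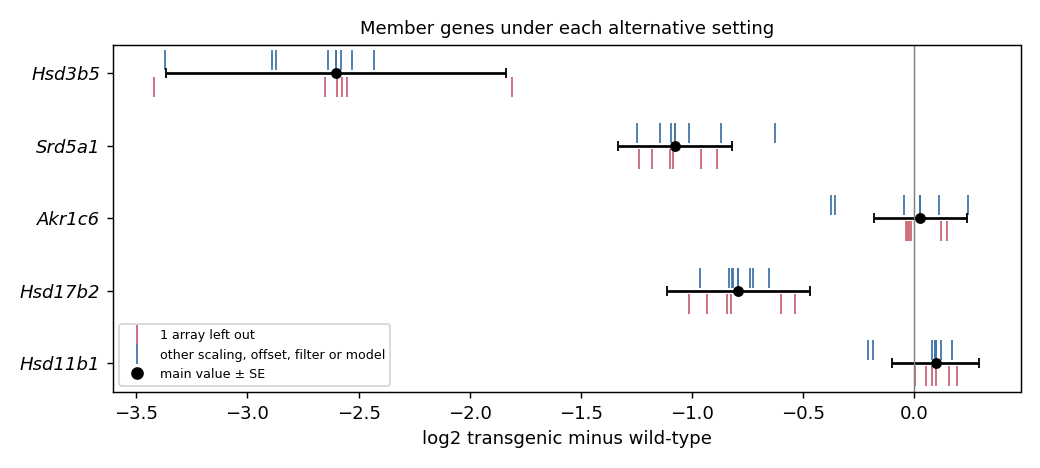
Log2 difference, transgenic minus wild type, of each of the 5 genes as reported (points, with limma's SE) and under the alternative settings (ticks). Hsd3b5 stays between -3.42 and -1.81, Srd5a1 between -1.25 and -0.63 and Hsd17b2 between -1.01 and -0.54, whereas Akr1c6 and Hsd11b1 lie on both sides of 0.

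**Figure D4:**
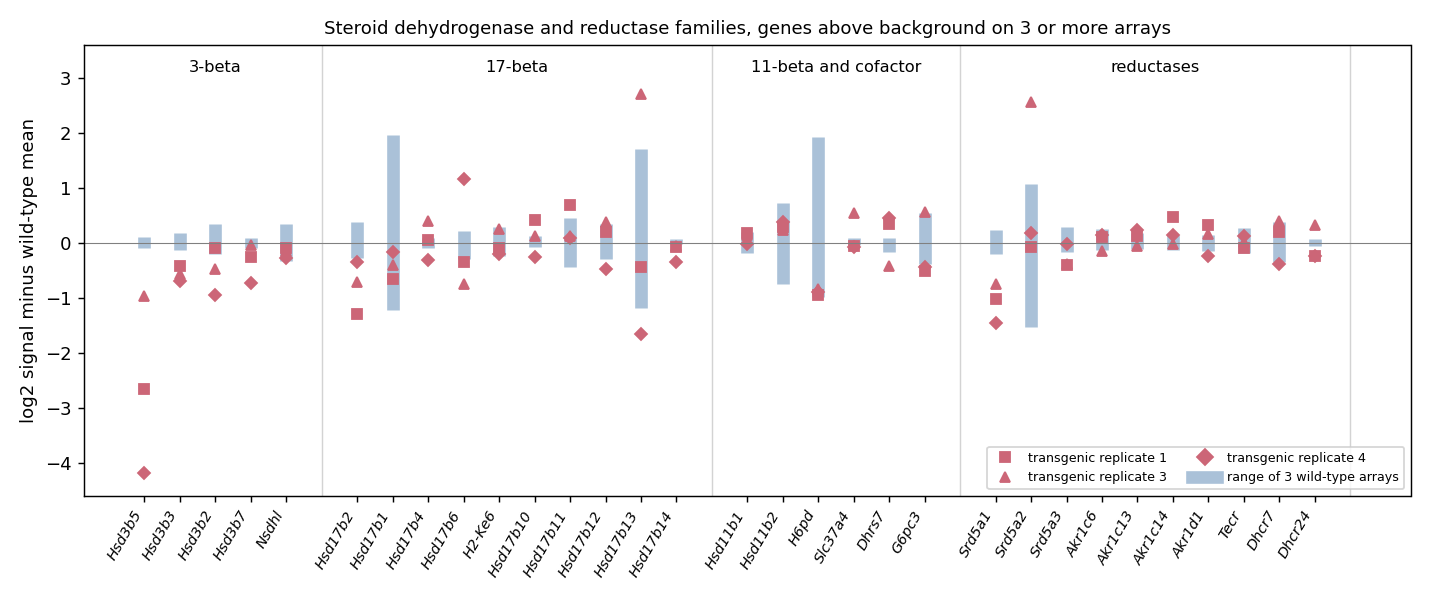
Normalized log2 signal minus the wild-type mean for genes of the 4 enzyme families that were above background on 3 or more arrays, with bars for the range of the 3 wild-type arrays and points for the 3 transgenic arrays. The points of Hsd3b5, down to -4.18, Srd5a1, Hsd17b2, Hsd3b3 and Hsd17b14 lie below their wild-type bars.

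The 4 families these genes come from held 41 other genes, of which 33 were measured. Their differences were positive for 16 and negative for 17, with a median of -0.02, the value over all named genes. This balance depends on the scaling. Under median scaling, with the 5 genes included, the 3-beta list had 0 positive and 8 negative differences and the 17-beta list 2 and 9. The 11-beta list then had 1 and 5 and the reductase list 2 and 11, beside 5292 and 8676 for all named genes. For 2 of the 33 the transgenic values were all lower, close to the share of 5.9% over all features. These were Hsd3b3 and Hsd17b14, the latter turning to 0.90 after local correction. Of the retinol and sterol short-chain dehydrogenases, relatives of the 17-beta enzymes, 18 of 19 were measured, 9 in each direction, with a median of -0.04. Rdh13 had -0.69 ± 0.30 (SE), with 1 spot in a patch, -0.20 after local correction and -0.42 without wild-type replicate 2. Rdh5, a retinol dehydrogenase, had -0.52 ± 0.24 (SE), and -0.32 without wild-type replicate 1. Rdh1 had -2.33 ± 0.83 (SE) with overlapping groups, and 2 of its spots lay in patches.

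Steroid hydroxylases, cytochromes P450 that add hydroxyl groups to steroids, had 15 of 19 genes measured, 11 positive and 4 negative. Their median was 0.76, and 0.31 without transgenic replicate 4. Several of these genes are also on the male-biased and female-biased lists. Cyp2b9, a hydroxylase of female mouse liver, read 6.40, 6.70 and 6.60 in wild-type and 11.10, 8.62 and 11.99 in transgenic livers. Every transgenic value lay above the wild-type values, and the difference was 4.00 ± 0.83 (SE), which did not pass (limma, adjusted p = 0.69). Cyp39a1, an oxysterol hydroxylase of bile acid synthesis, had 0.94 ± 0.27 (SE). Cyp7b1, the male-biased oxysterol and androgen hydroxylase, had -1.0 ± 0.44 (SE), and -0.59 without transgenic replicate 4.

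Scaling moved these counts. Under median scaling the reductase list had 2 positive and 11 negative differences in place of 8 and 5, and the 11-beta list with its cofactor genes 1 and 5 in place of 4 and 2. The retinol list had 5 and 13, the conjugation list described next 6 and 10, and the receptor list 6 and 6. The median of all named genes was -0.12 under that scaling, beside -0.02.

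Enzymes that conjugate steroids were split between directions. Of 20 genes 16 were measured, 9 positive and 7 negative, with a median of 0.05. Ugt2b38, a glucuronosyltransferase on the male-biased list, had -2.16 ± 0.59 (SE) with groups that did not overlap, but 1 of its spots lay in a patch and local correction gave -0.98. Sult2b1, a sulfotransferase for cholesterol and other hydroxysteroids, stayed under the background threshold in all wild-type livers and was at least 1.07-fold higher in transgenic livers. Sult1e1, the oestrogen sulfotransferase, was likewise not above background in wild type and at least 1.25-fold higher, with overlapping values. Each such bound compares the transgenic mean with the background limit of the wild-type arrays, which can understate the difference.

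Receptors and carriers of steroids had 12 of 14 genes measured, 8 positive and 4 negative, with a median of 0.09. Esr1, the main oestrogen receptor of liver, was under the background threshold in all wild-type livers, over it in all 3 transgenic livers, and at least 1.12-fold higher. Its difference of 1.14 ± 0.44 (SE) became 0.65 without wild-type replicate 4. Pgr, the progesterone receptor, had 1.05 ± 0.43 (SE) with overlapping groups, and 0.63 without transgenic replicate 4. Of 16 genes known to respond to glucocorticoids, 14 were measured, 8 positive and 6 negative, with a median of 0.06, which became 5 and 9 with -0.17 under median scaling. Fkbp5, a chaperone of the glucocorticoid receptor and one of its target genes, read 7.83, 7.71 and 7.44 in wild-type and 8.28, 9.03 and 9.59 in transgenic livers. The groups did not overlap, and the difference was 1.31 ± 0.36 (SE), which did not pass (limma, adjusted p = 0.69). Igfbp1 had 1.65 ± 0.97 (SE), 0.57 without transgenic replicate 1, and 2.56 after local correction, 1 of its spots lying in a patch.

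Genes of growth hormone and STAT5 control, which set the sex pattern of rodent liver, had 14 of 16 measured, 7 in each direction, with a median of 0.00. Ghr and Stat5b had no probe named here, so these values do not cover them. Stat5a, a transcription factor of that pathway, read 7.57, 7.58 and 7.25 in wild-type and 6.75, 7.07 and 6.89 in transgenic livers. The groups did not overlap, and the difference was -0.56 ± 0.20 (SE), which did not pass (limma, adjusted p = 0.69). Prlr, the prolactin receptor, was under the background threshold in all wild-type livers and at least 1.16-fold higher in transgenic livers. Hnf4a, a transcription factor of hepatocytes, had 0.45 ± 0.21 (SE), with 1 spot in a patch, and 0.005 after local correction.

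Of the male-biased genes other than those described here, 13 of 14 measured had negative differences, with a median of -0.60, and 12 of 14 with -0.33 without transgenic replicate 4. Slco1a1, an organic anion transporter with 1 spot in a patch, had -1.58 ± 0.60 (SE), or -0.95 without that array, and Cyp4a12b, a fatty acid hydroxylase, had -3.06 ± 1.43 (SE), or -1.32 without that array. Of the female-biased genes 17 of 17 had positive differences, with a median of 1.72, and 14 of 17 with 0.66 without that array. These lists and their direction were known from earlier results of these data and are no independent evidence. They share genes with the hydroxylase and conjugation lists, among them Cyp2b9, Cyp7b1, Sult1e1 and Ugt2b38, so the counts are not separate observations.

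**Figure D5:**
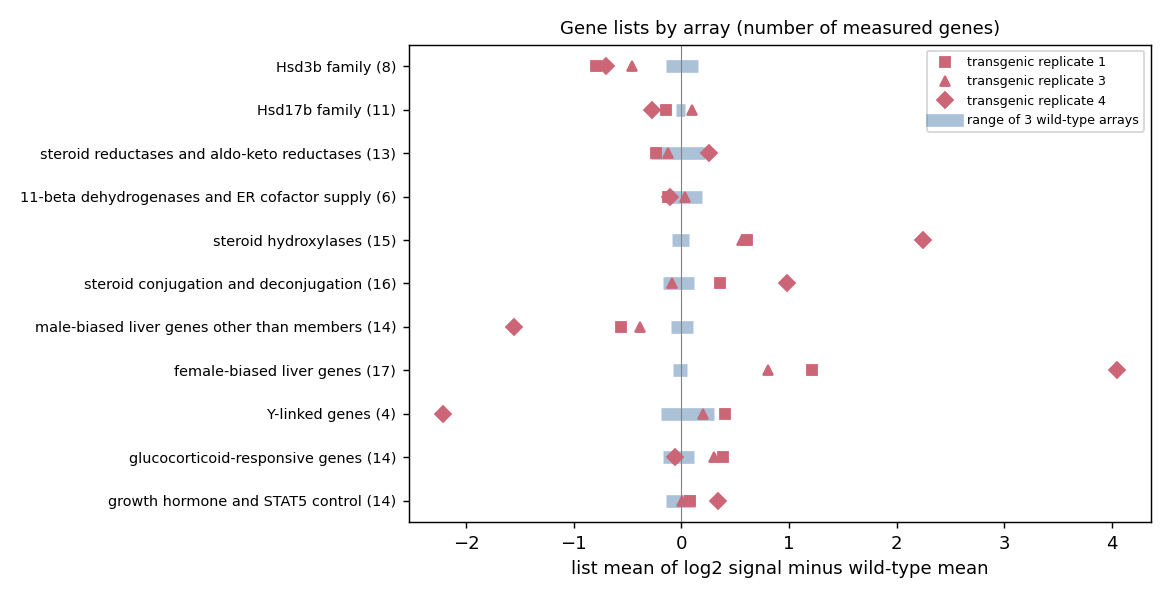
Mean over the measured genes of each list of the normalized log2 signal minus the wild-type mean, with bars for the range of the 3 wild-type arrays and points for the 3 transgenic arrays. On transgenic replicate 4 the female-biased list lies at 4.04, the male-biased list at -1.55 and the Y-linked genes at -2.22, while the 17-beta family lies between -0.27 and 0.10 on the transgenic arrays.

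Zonation genes did not share 1 direction. Periportal genes had 10 of 12 measured, 6 positive and 4 negative, with a median of 0.04, and pericentral genes 11 of 13, 4 positive and 7 negative, with a median of -0.08. Under median scaling these became 2 and 8, and 1 and 10. Cyp1a2, a pericentral cytochrome P450, had -0.56 ± 0.21 (SE), with groups that did not overlap. Hal, the histidine-degrading enzyme of periportal cells, had -0.61 ± 0.22 (SE), but 1 of its spots lay in a patch and local correction gave 0.09.

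Among 10952 genes above background on at least 3 arrays, those whose values were most like each of the 5 genes over the 6 arrays were ranked by Pearson's r. Hsd3b5 was most like Slco1a1 (r = 0.99), Nudt7, a peroxisomal hydrolase of coenzyme A (0.99), and Pnpla7, a lysophospholipase (0.98). Nudt7 had a difference of -0.99 ± 0.37 (SE) and Pnpla7 of -0.84 ± 0.28 (SE), with groups that did not overlap, and Nudt7 had -0.62 without transgenic replicate 4. Srd5a1 was most like Loxl1, a collagen-linking oxidase, Cdh1, the epithelial cadherin, and C8b, a complement protein made in liver, each at 0.99. Cdh1 had a difference of -1.56 ± 0.34 (SE), and 1 of its spots lay in a patch. Hsd17b2 was most like Krba1, Iffo1 and Rnf215, each at 0.99. For Hsd11b1 these were Sfxn1, Appbp2 and Acrbp at 0.99, and for Akr1c6 they were Swi5, at 1.00 after rounding, Grap and Stk16 at 0.98. Of the 10952 genes, 15 to 36 passed 0.95 for each of the 5, so the genes named are the top of a long ranking. With 6 arrays, these values describe these arrays only.

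The markers of hepatocytes were strong on every array. All 7 of 10 that were measured were above background on all 6 arrays. Their normalized signals summed to 148754 to 157201 in wild-type and 155925 to 159789 in transgenic livers. Quantile normalization gives the brightest probes values from the same set on every array, which limits how far these sums can differ. Of 10 markers of steroid-making cells of adrenal or gonad, 9 were measured, with sums of 2619 to 3812 and 2426 to 4314. Their differences were positive for 6 and negative for 3. Star and Cyp11a1, which define such cells by starting steroid synthesis, and Hsd3b1 were above background on 0 arrays. Cyp11b2, on the same list, was under the background threshold in all wild-type livers and over it in all 3 transgenic livers. It was at least 1.41-fold higher there. Cyp21a1 was above background on 3 wild-type and 2 transgenic arrays, and 2 of its spots lay in patches. The lymphocyte markers, 8 of 8 measured, had a median of -0.53 and sums of 1259 to 1425 and 1207 to 1913, and their part in the differences was not tested.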

How the data were processed

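From total RNA of 6 livers, biotin-labelled cRNA was made and detected with Alexa-647 streptavidin on 1-colour arrays, per the labels' protocols. Scanner type and software were not given in the sources used here. Each spot's intensity was deposited by the authors on a linear scale with background already taken out, per the file headers. A second deposited intensity column, also the authors' value table, equals the first over an array-wide constant.

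From 34967 mouse probes (without 620 bacterial control spots), each array's signals were floored at percentile 1 of its positive values, log2 was taken and arrays were quantile normalized. RefSeq accessions of GRCm38.p6 named 14760 probes and left 20207 unnamed. A listed gene was counted as measured when it had a named probe. The brightest of several probes stood for a gene. Differences between groups were fitted by limma 3.58.1 (R 4.3.3), two-sided, with Benjamini-Hochberg adjustment over 34175 features, and the steps were tested on simulated data. A probe was above background when its signal was over the control median by more than 3 scaled median absolute deviations, taken over 570 control spots. A patch was a place where spots within 4 rows and columns deviated by over 0.5 in the median. These 2 definitions follow an earlier look at the data.

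The genes and lists were chosen with earlier results of these data known. Named genes were the 5 genes, up to 4 genes of each list with the smallest p, and any gene of the enzyme families. The 3 most similar genes for each of the 5, Src, Mt1, Mt2 and cell type markers were also named. Chromosomal neighbours were added by position. Matplotlib 3.10.9 drew the figures.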

Additional observations from a re-analysis of the deposited data

How the results depend on the processing

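Hsd3b5, Srd5a1 and Hsd17b2 kept a negative difference under all alternatives in which they could be measured (20, 19 and 20), and limma's adjusted p stayed between 0.57 and 0.85. Srd5a1 has no value where probes had to be above background on all 6 arrays. Akr1c6 turned to -0.37 under median scaling, -0.36 under 75th percentile scaling and -0.045 with array weights. Hsd11b1 turned to -0.21 and -0.19 under these 2 scalings, and the cause was not tested. Median scaling put the median of named genes at -0.12 in place of -0.02 and split the unadjusted calls into 943 higher and 1311 lower. The 75th percentile gave 1094 and 1290, and local correction 1236 and 1359. Leaving out each array in turn gave -3.42 to -1.81 for Hsd3b5, -1.24 to -0.89 for Srd5a1, -0.037 to 0.15 for Akr1c6, -1.01 to -0.54 for Hsd17b2 and 0.00 to 0.19 for Hsd11b1.

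The count of 0 features past limma's adjusted test became 1 with every probe tested separately (a probe of Ang), and 0 to 1 with 1 array left out. The 1 came without wild-type replicate 1 or without transgenic replicate 4, each time an unnamed probe, seen after the values were known. The unadjusted count of 2424 was 1574 among probes above background on all 6 arrays, where fewer were tested, and 1348 with a replicate block. The groups share only numbers 1 and 4, whose deviations correlated at 0.06 each. The other pairs of a wild-type and a transgenic array gave -0.07 to 0.02. Whether the numbers pair the samples cannot be told from these small values. The block in effect compares the 4 arrays numbered 1 or 4. It gave -3.37 for Hsd3b5, -1.25 for Srd5a1, 0.24 for Akr1c6, -0.97 for Hsd17b2 and 0.08 for Hsd11b1, with 0 features called.

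With 3 arrays a group, precision is low: the 95% interval of Hsd3b5 runs from -4.46 to -0.74. Srd5a1 lay near background.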
